A study of Caenorhabditis elegans with 36 samples.

Results

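Total RNA of L4 larvae was set against total RNA of eggs in Caenorhabditis elegans. The comparison used the 3 L4 inputs and the 4 Egg inputs of a series of 36 samples, of which 18 are inputs, that is, total RNA taken from a lysate before an immunoprecipitation of the silencing complex protein AIN-2. The immunoprecipitates were not used here. Every sample, eggs included, came from a strain with a single-copy integrated AIN-2::GFP transgene, so no level below is that of an unmodified strain. L4 larvae were collected after 42 h on HB101 bacteria at 20 °C, and L1 larvae, which served as a further stage for comparison, after 4 h. Eggs were taken by bleaching well-fed animals, cleaned on sucrose and frozen at once, and the ages of the embryos are not given. Larval populations were used when more than 80% of the animals were at the labelled stage. Each replicate of each stage was grown and harvested independently. The lysates are of whole animals: no gonad was dissected, and a statement about the germ line rests on genes known to act there.

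In a hermaphrodite, the germ line makes sperm during the fourth larval stage and then switches to oocytes. The mRNAs that are stored in the oocyte are inherited by the embryo, where they direct the first divisions until the embryo transcribes its own genome. A newly fed L1 larva carries only the primordial germ cells and is past the time at which stored maternal mRNA directs development. A pair of questions follows from the design. The first is which mRNAs differ between L4 larvae and eggs. The second, for which the 4 L1 inputs are needed, is which mRNAs L4 larvae and eggs both hold above the level in L1 larvae.

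Each input is 1 dye channel of a spotted array. Between 62.3% and 71.4% of the 23232 spots of the 7 inputs exceeded 3 times the noise of their own column, which is called above background here. Levels are given as log2 of the normalized intensity. A level of 0 lies near the mean of a deposited column, and levels of different genes cannot be set against each other, because the probes differ. Of 16378 named genes on the array, 15015 had at least 2 values above 0 in each of the 2 stages and were tested, and 1363 were not. Across 11788 genes with a value in all 7 inputs, levels correlated with r between 0.84 and 0.88 among L4 inputs, between 0.818 and 0.932 among Egg inputs and between 0.685 and 0.798 across the stages. These correlations run across genes, which are not independent of each other. Egg replicate 4 had the lowest correlations with its own stage, 0.818 to 0.841.

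L4 replicate 10 stood apart from the other L4 inputs. It is the only L4 input labelled with Cy3, so its dye and its culture cannot be told apart. It held the lowest of the 3 L4 levels for 24 of 27 genes of the major sperm protein group, with a median of -2.86 (log2) relative to the mean of replicates 1 and 3. The same was true of 5 of 6 vitellogenin genes, with a median of -3.40, and of 37 of 48 spermatogenesis genes, with a median of -1.77. Over all 13252 named genes with 3 L4 values it was lowest for 31.4%, with a median of 0.20. It was also lowest for 65 of 93 cell cycle genes, 26 of 41 oocyte and maternal genes and 33 of 54 meiosis genes, with medians of -0.82, -0.52 and -0.60, and its median was -1.51 over 23 eggshell genes. List counts and the leading values of sperm and yolk genes are given with and without this input.

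A gene was called when limma gave a Benjamini-Hochberg adjusted p under 0.05 in a fit to all 18 inputs with stage and dye as terms. L4 larvae had 1486 named genes called higher than eggs, 9.9% of those tested, and 1199 called lower, 7.99%. Of these, 383 were called higher by more than 16-fold and 190 lower by more than 16-fold. At an unadjusted p under 0.05, 2317 were higher and 2119 lower. Of 4904 probes without a gene name, 3.98% were higher and 7.01% lower. The median L4 minus Egg difference over all named genes was -0.04 (log2). Without L4 replicate 10 the counts were 1386 higher and 1173 lower, and without L4 replicate 3 they were 1125 higher and 765 lower. In whole-animal RNA, more cells of a type and more RNA per cell cannot be told apart, and this holds for every difference below.

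**Figure D1:**
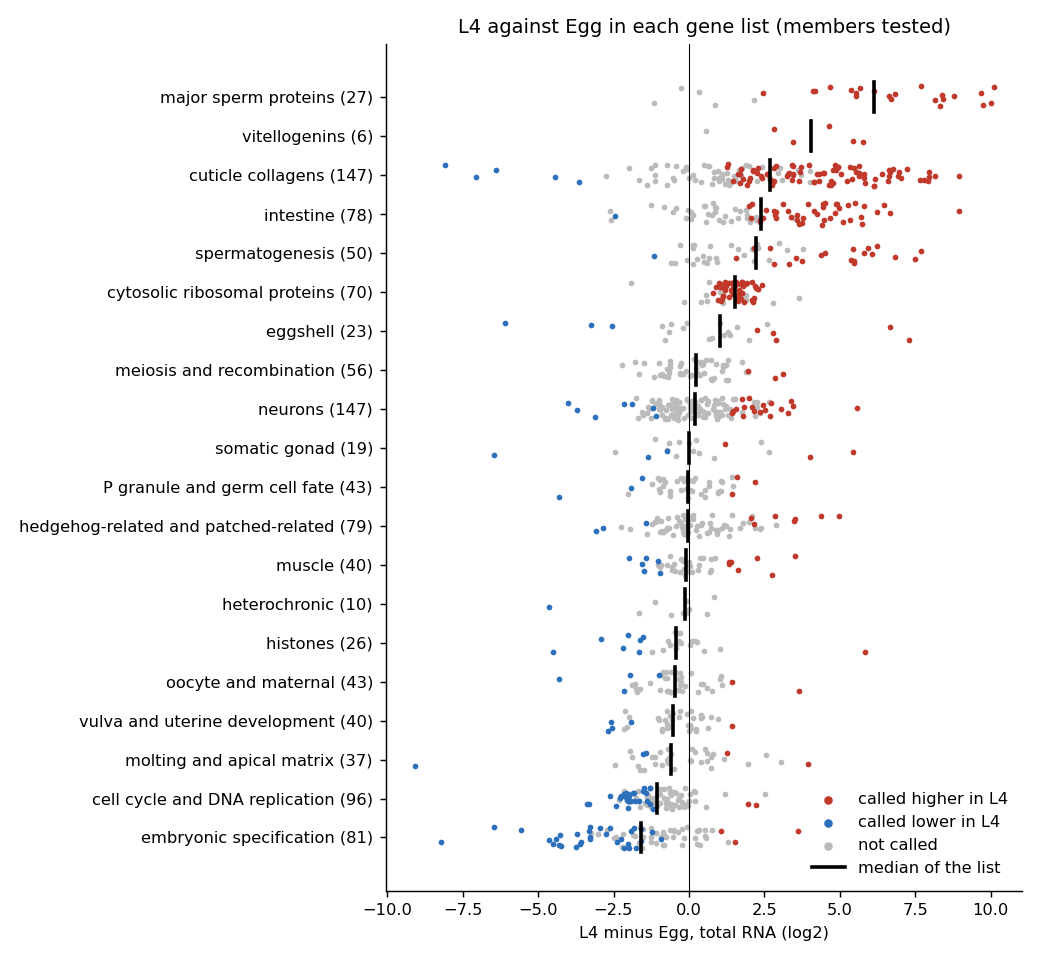
L4 minus Egg difference in total RNA (log2, horizontal axis) of every tested member of 20 gene lists, each dot being 1 gene and each black bar the median of the list, with the number of members tested in brackets. The medians run between 6.12 for the major sperm proteins and -1.60 for embryonic specification genes.

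Sperm genes held the highest differences. Major sperm proteins form the cytoskeleton that moves nematode sperm and also signal to oocytes, and they are encoded by many near-identical genes. The group as counted here holds genes named msp and also genes named ssp. Of the 27 genes of this group that were tested, 22 were called higher in L4 larvae and 0 lower, with a median of 6.12 (log2), against 9.9% higher, 7.99% lower and a median of -0.04 over all named genes. The level of msp-63 was 4.92, 4.99 and 0.93 in L4 replicates 1, 3 and 10, against -7.67, -5.65, -5.66 and -6.97 in Egg replicates 1, 2, 4 and 5. It was above background in all 3 L4 inputs and in none of the 4 Egg inputs, which gives at least a 540.5-fold higher level in L4 larvae (adjusted p = 7.91e-05).

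The level of msp-38 was 4.99, 5.46 and 1.5 in the L4 inputs, against -5.72, -7.25, -5.48 and -4.71 in the Egg inputs. That of msp-56 was 4.76, 5.84 and 2.28 in the L4 inputs and -5.31, -5.93, -5.48 and -5.18 in the Egg inputs. In both genes L4 replicate 10 was the lowest L4 input and still lay far above every Egg input, and both were above background in only 2 of 4 Egg inputs. The fitted L4 minus Egg difference was 9.76 ± 1.23 (SE) for msp-38 and 9.70 ± 1.13 for msp-56, and without L4 replicate 10 it was 11.24 and 11.21. Over the whole group, leaving that input out gave 21 genes higher and a median of 7.32. msp-50, with 3 Egg values and 1 Egg input above background, stood at 10.09 ± 1.24, and msp-142 at 8.78 ± 1.02. The probes of the msp genes may detect one another's transcripts, so the number of separate genes behind these calls is uncertain.

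Of 50 spermatogenesis genes outside that group, 20 were called higher and 1 lower, with a median of 2.21. Without L4 replicate 10, 25 were higher and 0 lower. The leading members were nspd-4, nspd-5 and nspd-1, of a family of small sperm peptides. nspd-5 was above background in all L4 inputs and in no Egg input, at least 63.0-fold higher in L4 larvae (adjusted p = 7.26e-05), and nspd-1 stood at 6.84 ± 0.92, or 8.29 without L4 replicate 10. The level of nspd-4 was 2.37, 3.30 and -0.36 in the L4 inputs, against -4.86, -6.86, -5.66 and -6.28 in the Egg inputs. No L4 level overlapped an Egg level, and the difference was 7.70 ± 0.82 (adjusted p = 2.68e-06), with 1 of 4 Egg inputs above background, and 8.85 without L4 replicate 10. The sperm chromatin gene spch-3 was above background in all L4 inputs and in no Egg input, at least 181.8-fold higher in L4 larvae (adjusted p = 0.000136). The single member called lower was spe-8, a tyrosine kinase gene of sperm activation, at -1.15 ± 0.37 (adjusted p = 0.0426), and this call was lost in 10 of 11 fits that left out 1 input.

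**Figure D2:**
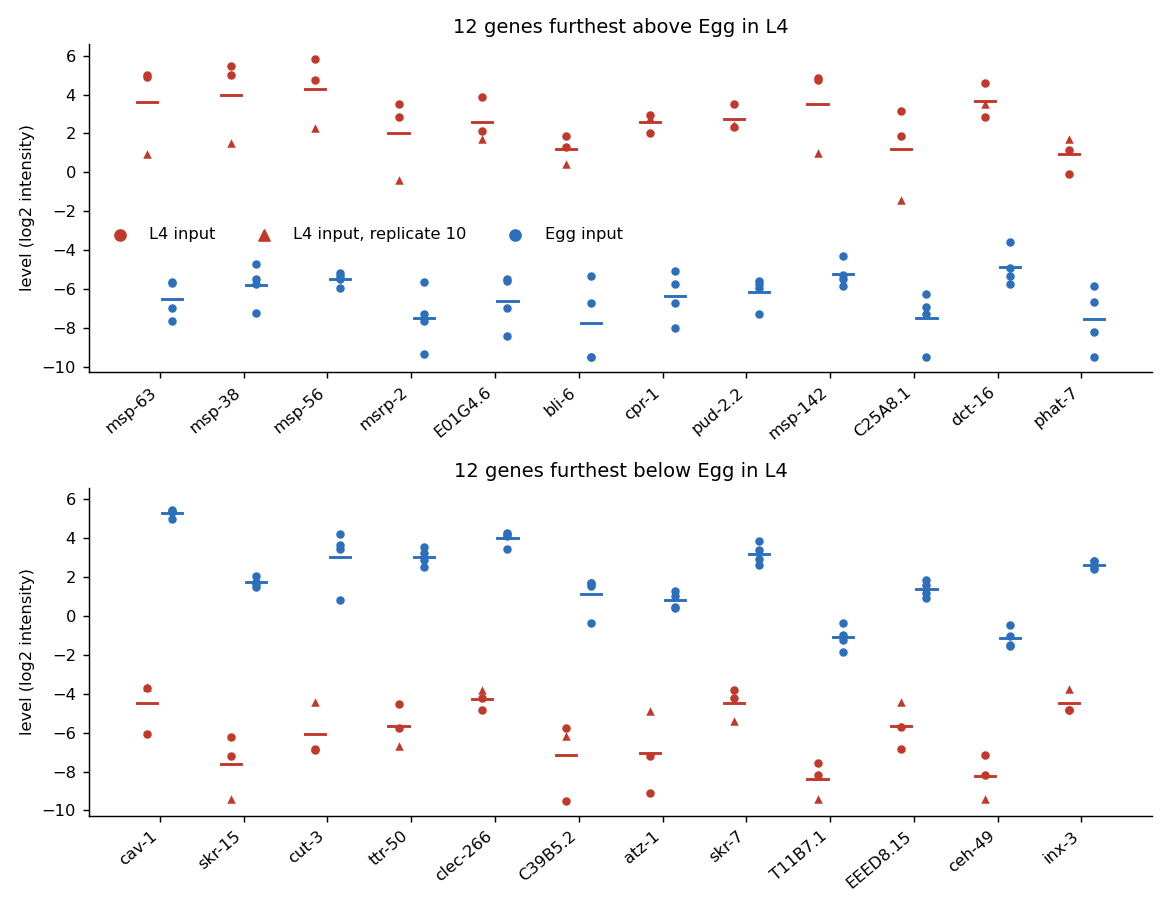
Level (log2 intensity, vertical axis) in each L4 input (red, replicate 10 as a triangle) and each Egg input (blue) of the 12 named genes furthest above Egg and the 12 furthest below Egg in L4 larvae, with lines at the group means. No L4 level overlaps an Egg level in any of the 24 genes, which the rule for choosing them required.

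Yolk and gut genes were also higher in L4 larvae. Vitellogenins are yolk proteins made by the intestine and taken up by oocytes. All 6 genes were measured, and 5 were called higher in L4 larvae, with a median of 4.03. The level of vit-6 was 3.18, 3.08 and -2.41 in the L4 inputs, against -4.73, -4.25, -3.88 and -4.88 in the Egg inputs. That of vit-5 was 3.37, 4.16 and -0.50 in the L4 inputs and -2.08, -1.72, -2.60 and -2.69 in the Egg inputs. L4 replicates 1 and 3 were thus well above every Egg input and replicate 10 lay nearest to them. The differences were 5.77 ± 1.05 for vit-6 (adjusted p = 0.000787) and 4.63 ± 0.92 for vit-5 (adjusted p = 0.00159).

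In vit-2 the level was 1.38, 2.47 and -3.66 in the L4 inputs, against -5.59, -3.43, -5.82 and -6.39 in the Egg inputs, so replicate 10 fell within the Egg range. Its difference was 5.43 ± 1.53 (adjusted p = 0.0213). It was not called without L4 replicate 1 (adjusted p = 0.0914), without L4 replicate 3 (adjusted p = 0.129) or without Egg replicate 5 (adjusted p = 0.0591). vit-3 stood at 3.44 ± 0.67 and vit-1 at 2.82 ± 0.86. The call of vit-1 was lost in 3 of 11 fits with 1 input left out, those without L4 replicate 3, Egg replicate 1 or Egg replicate 2. vit-4 was not called, at 0.58 ± 0.68 (adjusted p = 0.652). vit-1 and vit-2, and likewise vit-3, vit-4 and vit-5, are near-identical in sequence, so the split between them is uncertain. Without L4 replicate 10 the list again had 5 genes called, with a median of 5.35, and the differences of vit-6, vit-2, vit-5, vit-3 and vit-1 were 7.68, 7.35, 6.22, 4.48 and 3.11. Without L4 replicate 3 only 3 vitellogenins were called.

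Of 78 other intestinal genes, 43 were called higher and 1, the glutathione transferase gst-4 at -2.44 ± 0.71 (adjusted p = 0.0225), lower, with a median of 2.40. The gst-4 call was lost in 4 of 11 fits with 1 input left out. The gut cathepsin B gene cpr-1 had levels of 2.01, 2.96 and 2.81 in the L4 inputs, against -5.72, -5.09, -8.01 and -6.71 in the Egg inputs. Here L4 replicate 10 lay between the other L4 inputs. The difference was 8.96 ± 0.55 (adjusted p = 2.36e-09), with 2 of 4 Egg inputs above background. cpr-5, of the same enzyme family, stood at 6.65 ± 0.75 and the lysozyme gene lys-7 at 6.47 ± 0.38, both above background in all 7 inputs. Over the list, replicate 10 was lowest for 27.6% of 76 members, with a median of 0.37 relative to replicates 1 and 3, beside 31.4% and 0.20 over all named genes. Against L1 larvae, only 1 of the 78 intestinal genes, spp-13, was called higher over L4 larvae and eggs, and 31 were called lower.

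The 12 genes with the highest differences also held some outside these lists. E01G4.6, pud-2.2 and dct-16 stood at 9.17, 8.91 and 8.56. msrp-2, C25A8.1 and phat-7 were above background in every L4 input and in no Egg input, at least 176.8-fold, 100.1-fold and 84.5-fold higher in L4 larvae. ZK1248.17 was at least 184.8-fold higher. In dct-16, phat-7 and pud-2.2, L4 replicate 10 was not the lowest L4 input.

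Nematodes make a new cuticle at each molt, and many of its collagen genes are used at particular stages. Of 147 cuticle collagens tested, 86 were called higher in L4 larvae and 5 lower, with a median of 2.69. The level of bli-6, which is needed for the adult cuticle, was 1.29, 1.87 and 0.44 in the L4 inputs, against -5.31, -9.47, -9.47 and -6.71 in the Egg inputs. The difference was 8.97 ± 0.93 (adjusted p = 2.84e-06), and 1 of 4 Egg inputs was above background. col-184 was above background in every L4 input and in no Egg input, at least 106.8-fold higher (adjusted p = 0.000161). col-175 stood at 8.15 ± 1.28, with 3 Egg values and 1 Egg input above background.

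The 5 collagens that were lower in L4 larvae were col-165, col-74, col-121, dpy-14 and dpy-17. The level of col-74 was -4.78, -6.83 and -4.82 in the L4 inputs, against 2.99, 1.83, 0.61 and 1.28 in the Egg inputs, a difference of -7.06 ± 1.00 (adjusted p = 0.000202). col-165 was above background in all Egg inputs and in no L4 input, at least 108.1-fold lower in L4 larvae (adjusted p = 0.000484). Without L4 replicate 1 the number of collagens called lower was 2. The cuticlin gene cut-3, a component of a larval cuticle ridge, was also lower. Its level was -6.90, -6.83 and -4.41 in the L4 inputs and 4.23, 3.65, 0.81 and 3.44 in the Egg inputs, with Egg replicate 4 well below the other eggs. The difference was -9.10 ± 1.36 (adjusted p = 0.000117).

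Of 70 cytosolic ribosomal protein genes, 55 were called higher in L4 larvae and 0 lower, with a median of 1.52. rpl-30, a protein of the large subunit, had levels of 5.36, 5.02 and 5.18 in the L4 inputs, against 3.28, 2.55, 2.65 and 2.97 in the Egg inputs, a difference of 2.30 ± 0.29 (adjusted p = 1.63e-05). With the columns centred on their medians in place of quantile normalization, 27 of the 70 were called higher. In a fit to the L4 and Egg inputs alone, 33 were. The median level of the list over 68 members was 3.46 on average in Egg inputs and 4.95, 4.99, 4.90 and 5.02 in L1, L2, L3 and L4 inputs.

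The list of embryonic cell fate holds transcription factors and other early zygotic genes that specify blastomeres and tissues. Of 81 tested, 32 were called lower and 3 higher, with a median of -1.60. Without L4 replicate 3, 21 were called lower. The forkhead gene fkh-3 had levels of -7.39 and -7.18 in L4 replicates 1 and 3 and no value above 0 in replicate 10, against 0.64, -0.44, 1.04 and 0.92 in the Egg inputs. It was above background in no L4 input, at least 68.5-fold lower in L4 larvae (adjusted p = 1.06e-05). hnd-1, a transcription factor of the early mesoderm and the somatic gonad precursors, was at least 32.6-fold lower in L4 larvae (adjusted p = 6.74e-05), and the early zygotic gene sdz-33 at least 34.3-fold lower (adjusted p = 7.72e-05).

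hbl-1, a hunchback-like zinc finger gene that acts in embryos and in larval timing, had levels of -1.51, -2.09 and -1.94 in the L4 inputs, against 2.65, 2.87, 3.73 and 1.98 in the Egg inputs. All L4 levels lay below all Egg levels, by a difference of -4.64 ± 0.36 (adjusted p = 3.91e-08). It was the only one of the 10 tested heterochronic genes that was called. The heterochronic genes daf-12, lin-41, lin-28 and lin-14 were not in this list. The 3 embryonic genes called higher in L4 larvae were sdz-24 at 3.62 ± 0.36, sdz-8 at 1.52 ± 0.38 and the endoderm gene end-3 at 1.07 ± 0.31. The calls of sdz-8 and end-3 were each lost in 2 of 11 fits with 1 input left out. Both were also lost in the Cy5 inputs alone and in a fit to the L4 and Egg inputs alone (adjusted p = 0.125 and 0.127 in the latter).

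The 12 lowest L4 minus Egg differences among called genes with 7 values and no overlap came from several families. cav-1 encodes caveolin, a membrane protein of the germ line and embryo. Its level was -3.73, -6.08 and -3.66 in the L4 inputs, against 5.43, 5.00, 5.42 and 5.35 in the Egg inputs. The Egg inputs agree closely with each other, and the difference was -9.77 ± 0.74 (adjusted p = 3.30e-08). skr-15, a Skp1-related ubiquitin ligase component, was above background in no L4 input and in every Egg input, at least 157.5-fold lower in L4 larvae (adjusted p = 4.46e-06). skr-7 of the same family stood at -7.65 ± 0.52, with every input above background. The gap junction gene inx-3, which is used in embryos, had levels of -4.84, -4.83 and -3.77 in the L4 inputs and 2.84, 2.42, 2.81 and 2.46 in the Egg inputs, a difference of -7.08 ± 0.43 (adjusted p = 2.25e-09). Of the other 12 lowest, the transthyretin-related gene ttr-50 stood at -8.64, the C-type lectin gene clec-266 at -8.34, atz-1 at -7.91 and EEED8.15 at -7.12. C39B5.2, T11B7.1 and the homeobox gene ceh-49 were above background in no L4 input, at least 104.8-fold, 22.04-fold and 21.6-fold lower in L4 larvae. Among genes with fewer values, Y82E9BR.17 and btb-6 were at least 123.7-fold and 83.3-fold lower in L4 larvae.

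Of 96 cell cycle and DNA replication genes, 29 were called lower and 2 higher, with a median of -1.07. The ribonucleotide reductase gene rnr-2 had levels of -1.03, -1.70 and -2.48 in the L4 inputs, against 2.29, 1.06, 1.72 and 1.77 in the Egg inputs, a difference of -3.37 ± 0.49 (adjusted p = 9.82e-05). Cyclin B, cyb-1, had levels of 1.31, 1.01 and 0.79 in the L4 inputs, against 3.68, 3.20, 3.50 and 4.18 in the Egg inputs, a difference of -2.60 ± 0.30 (adjusted p = 7.91e-06). Neither gene had an L4 level within the Egg range. Among the other 27, and chosen after their values were seen, mcm-3, mcm-4, mcm-5 and mcm-7 of the replicative helicase lay between -2.14 and -1.87. The count of 29 was 14 in the Cy5 inputs alone, 13 in a fit to the L4 and Egg inputs alone and 19 without L4 replicate 3. The 2 genes called higher were apc-10 at 2.23 ± 0.75 (adjusted p = 0.0499), lost in 9 of 11 fits with 1 input left out, and cdc-25.4 at 1.96 ± 0.56 (adjusted p = 0.0202), lost in 3 of 11.

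Histone genes, which are used in S phase, gave 7 called lower and 1 higher of 26. The linker histone gene his-24 stood at -4.50 ± 0.61 (adjusted p = 4.16e-05) and the histone H3 variant gene his-69 at -2.92 ± 0.40. Another H3 variant gene, his-70, was above background in no Egg input and in every L4 input, at least 8.27-fold higher in L4 larvae (adjusted p = 0.00132). Copies of the core histone genes are near-identical, so calls of single members are uncertain.

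For most germ line genes outside the sperm lists no difference between L4 larvae and eggs was called. The same held for 12330 of the 15015 named genes tested, so a missing call was the common outcome. Of 43 oocyte and maternal genes, 2 were called higher and 4 lower, with a median of -0.45. Of 43 P granule and germ cell fate genes, 3 were higher and 3 lower, with a median of -0.03, and of 56 meiosis genes, 3 were higher and 0 lower, with a median of 0.23. A missed call does not show equal levels. The median half-width of the 95% interval of an L4 minus Egg difference was 1.47 (log2) over all named genes, and only 4.42% of them had an interval within 2-fold.

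Among the oocyte and maternal genes, rme-2 encodes the yolk receptor of the oocyte. Its level was 1.70, 0.63 and -2.37 in the L4 inputs, against -3.45, -3.37, -3.37 and -4.33 in the Egg inputs, a difference of 3.66 ± 0.77 (adjusted p = 0.0026). The RNA helicase gene cgh-1, also on the P granule list, was higher by 1.43 ± 0.36 (adjusted p = 0.00913), but not without L4 replicate 3 (0.89, adjusted p = 0.0831). The members called lower were nos-2, mom-2, pos-1 and pkc-3. nos-2, a Nanos gene of the embryonic germ cell precursors, had levels of -5.82, -8.16 and -6.15 in the L4 inputs, none above background, against -1.51, -2.0, -4.39 and -1.65 in the Egg inputs, at least 9.01-fold lower in L4 larvae (adjusted p = 0.00618). pos-1, an RNA-binding protein of early cell fate, stood at -1.94 ± 0.34 (adjusted p = 0.000617) and the polarity kinase gene pkc-3 at -1.01. The Wnt gene mom-2 stood at -2.16 ± 0.63 (adjusted p = 0.0223), but at -1.39 without L4 replicate 10 (adjusted p = 0.148). The count of 4 was 9 without Egg replicate 4 and 2 without Egg replicate 1.

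Of the P granule and germ cell fate genes, glh-1, a Vasa-type helicase of the granules, was higher by 1.58 ± 0.44 (adjusted p = 0.0187), a call lost in 2 of 11 fits with 1 input left out. fbf-2, a PUF protein of the germ line stem cells, was higher by 2.18 ± 0.70 (adjusted p = 0.0407), a call lost in 6 of 11. The chromatin genes mrg-1 and mes-4 were lower, at -1.92 ± 0.33 and -1.55 ± 0.40. In the meiosis list, zhp-1, rmh-1 and him-3 were called higher, at 3.10 ± 0.78, 2.84 ± 0.65 and 1.96 ± 0.50. him-3, a protein of the chromosome axis, had levels of -0.02, -0.48 and -0.90 in the L4 inputs and -2.19, -2.77, -2.25 and -2.53 in the Egg inputs. All 3 L4 levels of him-3 lay above all Egg levels, and its call was lost without L4 replicate 1 (adjusted p = 0.057).

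**Figure D3:**
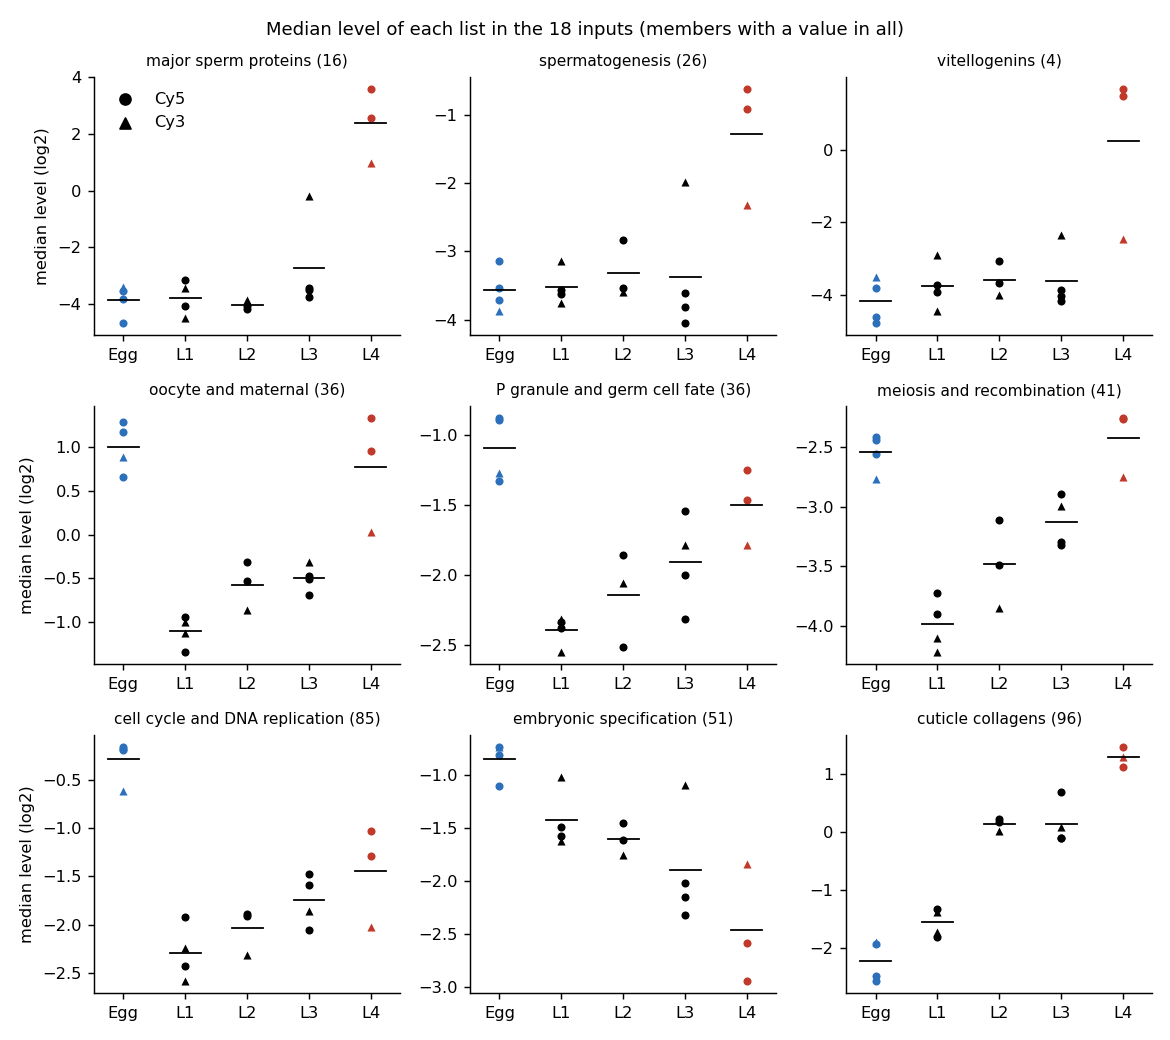
Median level (log2 intensity, vertical axis) of 9 gene lists in each of the 18 inputs, over members with a value in every input, by stage from Egg to L4 (circles Cy5, triangles Cy3, lines at stage means). For the oocyte and maternal list the stage means are 1.00 in Egg and 0.77 in L4 inputs and lie between -1.1 and -0.49 in L1, L2 and L3 inputs.

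Which mRNAs L4 larvae and eggs held above L1 larvae was asked with the mean of the 2 stages minus L1 in the same fit. A high level in 1 of the 2 stages can give such a call. Of 26 genes of the major sperm protein group, 13 were called higher, and all 13 were higher in L4 larvae than in eggs. The median level over 16 members of that group averaged -3.85 in Egg inputs and -3.78 in L1 inputs. Of 14610 named genes with enough values in L1 inputs too, 1054 were called higher than in L1 larvae, 7.21%, and 871 lower, 5.96%. In 675 genes, 4.62%, every L4 and every Egg level lay above every L1 level. Of the 1054, no L4 minus Egg difference was called for 642, while 148 were higher in L4 larvae than in eggs and 264 lower. The count of 1054 was 662 without L1 replicate 10 and 673 without L1 replicate 5, and 1287 without L4 replicate 10. Only 1 of the 4 L1 inputs had the title spelling of 2 L4 and 3 Egg inputs. What the spelling marks is not given, and with 1 such L1 input its part in this contrast cannot be judged.

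The germ line lists had 15 of 42 oocyte and maternal genes called higher than in L1 larvae, 10 of 43 P granule genes and 17 of 56 meiosis genes, that is, 35.7%, 23.3% and 30.4%, beside 7.21% of all named genes. Called lower than in L1 larvae were 0, 1 and 0 members. No L4 minus Egg difference was called for 12 of the 15, 8 of the 10 and 15 of the 17. In 12, 8 and 11 members of the lists, every L4 and every Egg level lay above every L1 level. Without L4 replicate 10 the counts were 18, 11 and 19. Without L1 replicate 10 the meiosis count was 7, and without L1 replicate 5 it was 10 and the P granule count 5. The median level of the 36 maternal genes with a value in every input was 0.77 on average in L4 inputs and 1.00 in Egg inputs, against -1.1 in L1 inputs. The 36 P granule genes averaged -1.50 in L4 inputs and -1.09 in Egg inputs, against -2.40, -2.14 and -1.91 in L1, L2 and L3 inputs. For these genes the L4 inputs, at -1.79 to -1.25, overlapped the L3 inputs, at -2.315 to -1.545. The 41 meiosis genes averaged -2.43 in L4 inputs and -2.55 in Egg inputs, against -3.99 in L1 inputs, with L2 and L3 inputs between, at -3.48 and -3.13.

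Genes of other tissues were also higher over L4 larvae and eggs than in L1 larvae. Of 79 hedgehog-related and patched-related genes, which act largely in the epidermis and its cuticle, 27 were called higher, 34.2%, and for 25 of these 27 no L4 minus Egg difference was called. Of 36 molting and apical matrix genes 9 were called higher, 25.0%, 8 of them without a called L4 minus Egg difference. The median level of the hedgehog-related list averaged -1.33, -2.41, -0.42, -0.59 and -0.68 in Egg, L1, L2, L3 and L4 inputs. That of the molting list averaged 0.004, -1.355, 0.12, -0.005 and -0.69. In both lists L1 inputs were the lowest stage and L2 and L3 inputs lay above L4 inputs, so these levels are not particular to L4 larvae and eggs. Of 141 cuticle collagens 38 were called higher, but 25 of these were higher in L4 larvae than in eggs, and the median level of the list averaged -2.23 in Egg inputs, below the -1.56 in L1 inputs. Of 40 muscle genes 3 were called higher, of 146 neuronal genes 4 and of 78 intestinal genes 1. Called lower than in L1 larvae were 5, 48 and 31 of them, in that order, beside 5.96% of all named genes. Of the 96 cell cycle genes 44 were called higher than in L1 larvae, and 20 of these 44 were lower in L4 larvae than in eggs. In 16 of the 96, every L4 and every Egg level lay above every L1 level. The count of 44 was 27 without L1 replicate 5 and 22 without L1 replicate 10. The part of dividing somatic cells in any of these counts was not tested.

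The leading germ line members were named after their values were seen. cey-3 and cey-2, cold-shock domain RNA-binding proteins of the germ line, had the highest values of the maternal list, 5.84 ± 0.60 and 4.89 ± 0.53 over L1 larvae (adjusted p under the threshold in each of 11 fits with 1 input left out). The level of cey-2 was 2.14, 3.77 and 0.47 in the L4 inputs and 2.43, 2.15, 0.16 and 1.55 in the Egg inputs, against -3.48, -2.74, -3.51 and -2.81 in the L1 inputs. L4 larvae and eggs overlapped, and both lay above every L1 input. The L4 minus Egg difference of cey-2 was 0.59, with a 95% interval of -0.75 to 1.92. The interval of cey-3 was -1.1 to 1.91.

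spn-4, an RNA-binding protein that regulates maternal messages in the early embryo, had levels of 2.20, 1.37 and -1.76 in the L4 inputs and 1.96, 0.37, 2.62 and 1.01 in the Egg inputs, against -5.23, -3.11, -3.61 and -3.84 in the L1 inputs. The value over L1 larvae was 4.75 ± 0.56. puf-5, a PUF-family repressor in oocytes, stood at 3.57 ± 0.55, with an L4 minus Egg interval of -1.66 to 1.12. The katanin subunit gene mei-2, which builds the meiotic spindle, stood at 3.82 ± 0.65 and puf-11 at 3.70 ± 0.55. puf-6 was called higher with 0 of 4 L1 inputs above background, so no size is given. It was not called without L1 replicate 10 (adjusted p = 0.12), and both puf-6 and puf-11 have near-identical paralogs. In 7 of the 8 genes, cey-3, cey-2, spn-4, mei-2, puf-6, puf-11 and puf-5, no L4 minus Egg difference was called, and mom-2 was lower in L4 larvae.

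**Figure D4:**
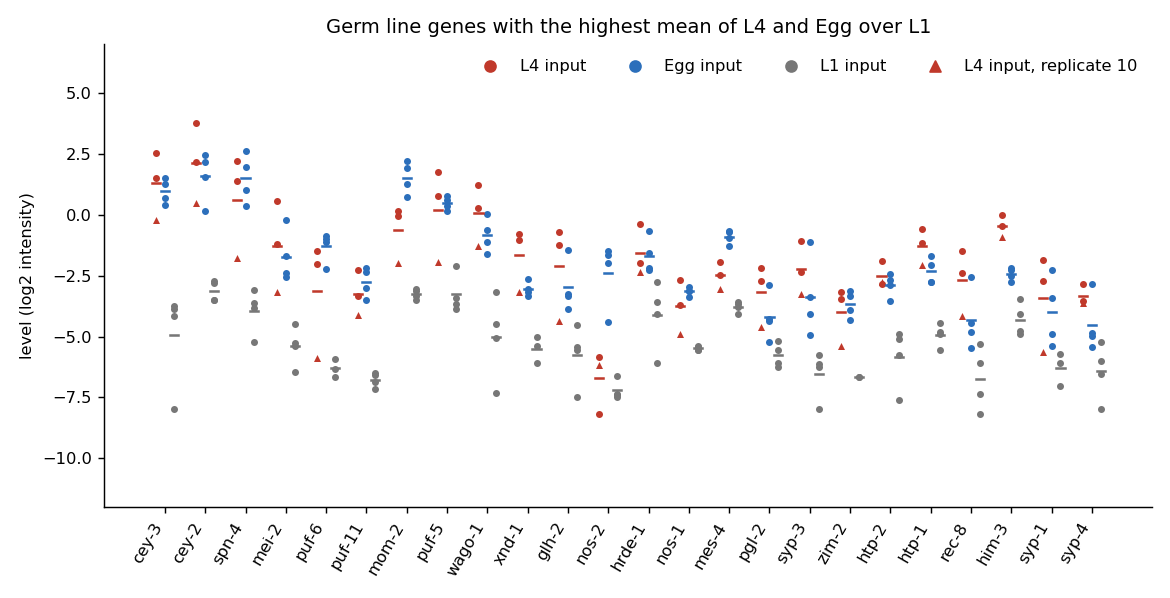
Level (log2 intensity, vertical axis) in each L4 (red, replicate 10 as a triangle), Egg (blue) and L1 (grey) input of the germ line genes with the highest mean of L4 and Egg over L1 in 3 lists, with lines at the stage means. For cey-2 the L4 and Egg inputs lie between 0.16 and 3.77 and the L1 inputs between -3.51 and -2.74, while for nos-2 the L4 and L1 inputs overlap.

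In the P granule list wago-1, an Argonaute protein that carries secondary small RNAs, led with 4.52 ± 0.61 over L1 larvae. Its level was 1.21, 0.27 and -1.28 in the L4 inputs and -0.63, -1.62, 0.03 and -1.14 in the Egg inputs, against -7.34, -4.49, -5.08 and -3.19 in the L1 inputs. The helicase gene glh-2 stood at 2.98 ± 0.62, the nuclear Argonaute gene hrde-1 at 2.47 ± 0.61, nos-1 at 2.08 ± 0.55, the P granule gene pgl-2 at 1.96 ± 0.50 and xnd-1, which sets crossover positions, at 3.09 ± 0.47. For each of these 6 genes no L4 minus Egg difference was called, but without L4 replicate 10 xnd-1 was called higher in L4 larvae than in eggs, at 1.98 (adjusted p = 0.0181). Without L1 replicate 5, nos-1 (adjusted p = 0.0501) and pgl-2 (adjusted p = 0.0972) were not called over L1 larvae. nos-2 and mes-4, the second at 2.02 ± 0.33, were also called higher than in L1 larvae, and both were lower in L4 larvae than in eggs. For nos-2, L4 and L1 levels overlapped and 0 of 3 L4 inputs and 0 of 4 L1 inputs were above background, so no size is given over L1 larvae, and the call was lost in 9 of 11 fits with 1 input left out.

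Meiosis genes were led by the synaptonemal complex gene syp-3 at 3.49 ± 0.64, with levels of -1.09, -2.34 and -3.24 in the L4 inputs and -3.37, -4.93, -1.11 and -4.08 in the Egg inputs, against -7.98, -5.74, -6.25 and -6.14 in the L1 inputs. Egg replicate 4 was the highest egg for syp-3, syp-1, syp-4 and rec-8, and in each of them it lay at or above 1 L4 input. The chromosome axis genes htp-1, htp-2 and him-3 stood at 3.02 ± 0.41, 3.02 ± 0.48 and 2.88 ± 0.42, and the cohesin gene rec-8 at 2.96 ± 0.71. The call of rec-8 was lost without L1 replicate 10 (adjusted p = 0.0696). The pairing center gene zim-2 was called higher too, but it had only 2 L1 values, none above background, so no size is given, and the call was lost without L4 replicate 1 (adjusted p = 0.0521). syp-1, at 2.51 ± 0.77, lost its call in 8 of 11 fits with 1 input left out. L1 levels of this list were often near background: 1 of 4 L1 inputs was above it for syp-3, syp-1 and rec-8.

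Closeness of L4 larvae and eggs was then required, by a 95% interval of L4 minus Egg within 2-fold in either direction, beside a call higher than in L1 larvae. Only 22 named genes met both, 0.151% of 14610, and 0 of them were in the oocyte and maternal, P granule or meiosis lists. From the cell cycle list 1 gene met both, the kinetochore gene rod-1. T19B10.2 led the 22. Its level was 2.16, 2.46 and 2.05 in the L4 inputs and 2.61, 2.24, 1.83 and 1.75 in the Egg inputs, against -2.61, -1.72, -1.03 and -2.22 in the L1 inputs. The L4 and Egg levels overlapped, at 3.95 ± 0.29 over L1 larvae, with an L4 minus Egg interval of -0.56 to 0.89.

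F58H1.2 followed at 3.94 ± 0.33, with levels of 0.94, 1.15 and 1.38 in the L4 inputs and 1.34, 1.22, 1.3 and 0.52 in the Egg inputs, against -3.52, -2.88, -2.24 and -2.77 in the L1 inputs. The others of the 12 highest were F41F3.3, B0001.7, rod-1, the actin gene act-2, the proteasome receptor gene rpn-13, ZK632.10, the transthyretin-related gene ttr-53, the cyclophilin gene cyn-5, the Golgi complex gene cogc-5 and C48B4.9, between 2.11 and 1.34 over L1 larvae. The call over L1 larvae was lost in 4 of 11 fits with 1 input left out for C48B4.9 and in 1 of 11 for ttr-53, without L1 replicate 10. Among the remaining 10, chosen here after their values were seen, pbs-1 and rpn-6.1 encode proteasome subunits and stood at 1.06 and 1.04. At the limit of the rule, the widest end of the interval was 0.97 for ttr-53, 0.98 for rod-1 and 1.00 for C48B4.9, just inside, and 1.00 for dbd-18, 1.01 for T19A5.3 and 1.02 for ptr-11, just outside. The count of 22 depended on single inputs and on the scale: it was 9 to 12 without any one of L4 replicates 1 and 3, Egg replicates 1 and 2 and L1 replicates 5 and 10, 35 without Egg replicate 4, and 209 when 0.1 was added to every value before the log.

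Some eggshell genes were called in L4 larvae against eggs and some against L1 larvae. The list holds genes of the eggshell and the chondroitin proteoglycans. Of 23 tested, 5 were called higher in L4 larvae than in eggs, 21.7%, and 3 lower, 13%, beside 9.9% and 7.99% of all named genes. The permeability barrier gene perm-2 was above background in no Egg input and in every L4 input, at least 26.3-fold higher in L4 larvae (adjusted p = 0.0363), a call lost without L4 replicate 1 or 3. cpg-9 stood at 6.65 ± 0.78 (adjusted p = 8.88e-06). cpg-20, cpg-24 and cpg-8 were lower, at -6.11 ± 1.06, -3.25 ± 0.80 and -2.54 ± 0.40. Against L1 larvae, 11 of 23 were called higher, 47.8%, beside 7.21% of all named genes. Among the 11, named after their values were seen, were the chitin-binding gene cbd-1 at 5.07, cpg-1 at 4.33, egg-4 at 4.25 and cpg-2 at 3.92. None of these had a called L4 minus Egg difference, but 0 members of the list met the rule for closeness. The count of 5 was 8 without L4 replicate 10 and 3 without any one of L4 replicates 1 and 3 and Egg replicates 1 and 2, and the count of 11 was 7 without L1 replicate 5 or 10.

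The other somatic lists are set beside 9.9% higher and 7.99% lower of all named genes. Of 147 genes of the neuronal list, 19 were called higher in L4 larvae and 7 lower. The list takes peptide genes by their names flp, nlp and ins, whatever tissue expresses them. Among the higher ones were the insulin-like gene ins-37 (at least 11.8-fold higher, adjusted p = 0.00515) and the neuropeptide gene nlp-40 at 3.44 ± 0.46. Among the lower ones were the cilium gene osm-5 (at least 5.48-fold lower, adjusted p = 0.00336) and unc-119 at -3.11 ± 0.48. Of 40 muscle genes, 7 were higher and 6 lower. The troponin genes unc-27 at 3.51 ± 0.62 and tnt-2 at 2.74 ± 0.34 were higher, and the myosin gene myo-3 at -1.50 ± 0.49 was lower, a call lost in 9 of 11 fits with 1 input left out. The muscle counts were 4 higher and 2 lower without L4 replicate 1, and 1 was lower without Egg replicate 2. In a fit to the L4 and Egg inputs alone, 3 muscle genes were higher and 1 lower, and 8 neuronal genes were higher and 3 lower.

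Of 40 vulva and uterine genes, 1 was called higher, sqv-4, and 4 lower, unc-6, lin-12, egl-26 and vab-23. The Notch receptor gene lin-12 stood at -2.58 ± 0.62 (adjusted p = 0.00714) and the guidance cue gene unc-6 at -2.68 ± 0.46 (adjusted p = 0.000468). The sqv-4 call was lost in 8 of 11 fits with 1 input left out. Of 19 somatic gonad genes, 3 were higher, the spermathecal gene sth-1 (at least 12.14-fold, adjusted p = 0.00159), the gap junction gene inx-8 (at least 8.91-fold, adjusted p = 0.0103) and fln-1, and 3 were lower, hnd-1, let-502 and lam-1. The calls of lam-1, let-502 and inx-8 were lost in 8, 3 and 1 of 11 such fits. Of 79 hedgehog-related and patched-related genes, 7 were higher and 3 lower, and of 37 molting and apical matrix genes, 2 were higher and 3 lower. The medians were -0.04 and -0.60, in that order.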

How the data were processed

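The deposited values are array intensities, on a linear scale with background subtracted, and each deposited column has a mean close to 1; the authors' scanner, software and scaling are not given in the sources used here. Names are those of the platform annotation: 17461 of 23232 spots had 1 symbol, 5771 none and 0 several. Values of 0 or less (7.55% to 14.0% of spots in the 7 inputs) were set missing, the rest put on the log2 scale, all 36 columns quantile normalized, and probes of 1 gene averaged (880 genes). With stage and dye as terms, the 18 inputs were fitted in limma 3.58.1 under R 4.3.3, variances being moderated with a trend (12 residual and 6.26 prior degrees of freedom), and p adjusted over 19919 genes and unnamed probes. The number of arrays limits the precision. Errors with ± are standard errors of the fit unless SD is written. "At least" folds set the mean of the measured stage against a floor, per array the higher of the lowest signal above background and the gene's own value.

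Genes to name were drawn from the 12 highest and 12 lowest called genes with 7 values and no overlap, the 3 highest and 3 lowest called members of each list, every member of lists of 12 or fewer genes, the 12 highest that met the rule for closeness, and the 6 highest bounds in each direction; not every gene so drawn is described, and all others were chosen after their values were seen. Members and lists were chosen with earlier results of these data known. Samples were not paired, since L4 and Egg inputs share only replicate number 1. Alternatives changed the normalization, the handling of low values, the dye term, the probes and the inputs used. Sequences and coordinates are not reported here. Tables were prepared with Python 3.11.15, numpy 2.4.6 and pandas 2.3.3, and figures with matplotlib 3.10.9.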

Additional observations from a re-analysis of the deposited data

Results flagged for a closer look

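In 10 of the 144 named genes with 4 Egg values, 1 Egg input lay apart from the other 3, with a gap to its nearest neighbour that, as a share of the whole range, exceeded Dixon's critical value at 95%. Chance marks about 1 in 20 groups of 4. In each of the 10 the input set apart was the lowest. It was replicate 4 in 5 genes: apc-10 (-6.48 against -3.53 to -3.18, gap share 0.894), C39B5.2 (-0.37 against 1.56 to 1.72, 0.926), clec-266 (3.44 against 4.14 to 4.27, 0.836), cyn-5 (3.55 against 4.28 to 4.37, 0.891) and nos-2 (-4.39 against -2.0 to -1.51, 0.83). It was replicate 5 in 4 genes: egl-26 (-0.76 against -0.44 to -0.37, 0.83), F58H1.2 (0.52 against 1.22 to 1.34, 0.862), grd-14 (-3.35 against -2.21 to -2.0, 0.847) and rme-2 (-4.33 against -3.45 to -3.37, 0.911). It was replicate 2 for puf-6 (-2.22 against -1.11 to -0.88, 0.832). Levels are log2 intensities. Of these genes, apc-10 was not called without Egg replicate 4, at 1.49 (adjusted p = 0.108).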

How the results depend on the processing

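No paired analysis was possible because the L4 and Egg inputs share only replicate number 1. Leaving out 1 input gave 1125 to 1625 genes higher in L4 larvae than in eggs and 765 to 1422 lower. Against L1 larvae it gave 662 to 1287 higher and 452 to 1201 lower, and 9 to 35 genes that also met the rule for closeness. In the inputs of 1 title spelling (2 L4, 3 Egg and 1 L1), 866 were higher and 620 lower, 156 and 54 against L1 larvae, and 2 met both rules. A fit to the L4 and Egg inputs alone gave 1013 higher and 733 lower. Of 124 named gene values in that fit, 22 lost a call, among them end-3, sdz-8, glh-1, fbf-2, cgh-1, mes-4, fln-1 and vit-1. With columns centred on their medians 574 were lower than in L1 larvae and 5 met both rules. In the Cy5 inputs alone 662 and 548 were called against L1 larvae and 7 met both rules, and with 0.1 added before the log 209 did. All other alternatives kept these counts within 1.5 times. Of 3442 alternative values of named genes, 3143 kept direction and side of the threshold, 273 lost a call, 7 gained one and 19 changed sign, all 19 in genes that were not called: lep-2 (0.346 in 1 title spelling, 0.004 in L4 and Egg inputs alone, -0.489 to 0.241 with 1 input left out), lin-29 (-0.345 to 0.306), lin-46 (-0.448 to 0.176) and vit-4 (-0.001 to 1.207), each with 1 input left out, and mab-10 (-0.031 as deposited, -0.036 centred, -0.327 with 0.1 added, -0.13 with a floor, -0.157 in Cy5 inputs, -1.012 with the brightest probe, -0.377 to 0.419 with 1 input left out). The cause was not tested. Of 440 list medians, 423 stayed within 1 standard deviation of the main value.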

Other observations

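Several gene families were looked at after the values of their members were seen, so their counts are descriptions. Skp1-related genes, which link substrates to SCF ubiquitin ligases, had 10 of 18 tested members called lower in L4 larvae than in eggs and 3 higher. skr-15 was at least 157.5-fold lower, and skr-7, skr-13 and skr-12 lay between -7.65 and -6.88 (log2). The higher ones were skr-5, at least 4.38-fold, and skr-3 and skr-4, at 1.79 and 1.72. F-box genes, whose proteins bind Skp1 in the same ligases, had 44 of 276 called lower and 8 higher, beside 7.99% and 9.9% of all named genes. Homeobox genes named ceh had 20 of 53 lower and 1 higher. Of 223 nuclear hormone receptor genes, 9 were lower and 3 higher, both below the shares over all named genes, and 211 were not called. Of 7 genes of hatching and chitin digestion, 3 were lower, hch-1, which encodes the hatching protease of the embryo, at least 45.8-fold lower, and the chitinase genes cht-5 and cht-1 at -6.52 ± 0.78 and -5.91 ± 0.39.

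In the other direction, 8 of 9 nspc genes, which encode small nematode-specific peptides, were higher in L4 larvae, with a median of 7.11, and all 4 ssq sperm genes were, led by ssq-2, at least 92.8-fold higher. Transthyretin-related genes had 18 of 49 higher and 3 lower, and C-type lectin genes 26 of 183 higher and 6 lower. Over all named genes 9.9% were higher and 7.99% lower. Of 10 synaptonemal complex genes, 7 were called higher over L4 larvae and eggs than in L1 larvae, beside 7.21% of all named genes.

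Among the L3 inputs, replicate 2 had a median level of -0.18 over 16 genes of the major sperm protein list. L3 replicates 1, 3 and 5 were at -3.51, -3.74 and -3.41, and Egg, L1 and L2 inputs lay between -4.68 and -3.16. Replicate 2 was the only L3 input labelled with Cy3, so its dye and its culture cannot be told apart.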
